A study of Mus musculus with 12 samples.

Results

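The 9 genes described here are established markers of microglia, the resident macrophages of the brain: C1qa, C1qb and C1qc, Csf1r, Cx3cr1, P2ry12, Tmem119, Aif1 and Trem2. They were chosen for what is known of them, though with earlier results of these data already known. Matched by symbol to Ensembl identifiers, all 9 were found among the 55487 gene identifiers of the count tables. RNA was sequenced from 12 male mice in 4 groups of 3 mice, with 1 library per mouse. In the forebrain at birth (P0), mice homozygous for a deletion of Auts2 exon 7 made with the cmv-cre line (cmv-cre_auts2-ex7koko, here P0 knockout) were set against wild-type littermates (labelled BL6 WTLM, P0 control). In the hippocampus at postnatal day 14 (P14), mice homozygous for the same deletion made with nes-cre (nes-cre_auts2-ex7koko, P14 knockout) were set against mice heterozygous for the floxed exon (auts2-ex7-fl-het, P14 control). The deletion comes from the floxed allele Auts2tm1.1Dare. Whether the P14 controls carry the Cre transgene is not given in the labels.

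Microglia arise from yolk sac progenitors that enter the brain before birth, and they depend on signalling through the receptor kinase Csf1r to survive. Neurons supply several of the ligands they read, among them Il34 for Csf1r and Cx3cl1 (fractalkine) for Cx3cr1. As the postnatal brain matures, microglia take up a homeostatic state whose best known marks include the purinergic receptor P2ry12 and the membrane protein Tmem119. They are also the main source of C1q in the brain, the 3-chain protein that opens the classical complement cascade and that tags synapses for removal. The cmv-cre line recombines throughout the body. The nes-cre line is driven in neural progenitors, a lineage that does not give rise to microglia. Recombination inside microglia was not measured in either line.

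Total counts per library ran from 11247150 to 16796797 at P0 and from 16830720 to 23340621 at P14, so the P0 values rest on fewer reads. Within P0, replicate 3 of each genotype belongs to a separate series of library numbers. Levels are given as counts per 1000000 reads counted to genes (CPM), scaled over all 12 libraries by the trimmed mean of M values (TMM), and levels of different genes are compared only per kilobase of summed exons. Auts2 itself, counted over the whole gene, was 169 ± 11 CPM in P0 knockouts and 150 ± 12.8 in P0 controls (SD, n = 3), and 81.8 ± 9.64 in P14 knockouts and 102 ± 7.26 in P14 controls. Neither difference passed edgeR's quasi-likelihood test (log2 fold change 0.16, adjusted p = 0.362 at P0, and -0.30, adjusted p = 0.111 at P14). A count over the whole gene does not isolate the deleted exon.

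The markers of microglia were detected in every library. The summed level of the 9 genes was 78.5 to 95.4 CPM in P0 controls, 70.1 to 84.5 in P0 knockouts, 310 to 348 in P14 controls and 322 to 358 in P14 knockouts. Genes of border macrophages, the macrophages of the meninges and vessels that share Csf1r, Cx3cr1, C1q, Aif1 and Trem2 with microglia, were also present, with Mrc1 at 11.9 CPM and Lyve1 at 7.34 CPM in P0 controls. A list of 12 blood leukocyte genes stayed between 1.02 and 4.47 CPM in sum, and Nkg7 was at 0 in every library. In whole tissue, fewer microglia and less of an RNA per microglial cell cannot be told apart, and this holds for every value that follows.

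The upstream sequences are shown for P2ry12, which passed the knockout test at P0, and for C1qb and Trem2, which did not. Each is the stretch of 250 bases before the RefSeq gene start (GRCm38.p6), printed 5′ to 3′ on the strand of the gene, with capitals for GAGGAA, or for its reverse complement where the match is on the other strand. This is the core bound by PU.1 (Spi1), the factor that macrophages need for their development.
P2ry12 (chr3:59262986-59263235, minus strand): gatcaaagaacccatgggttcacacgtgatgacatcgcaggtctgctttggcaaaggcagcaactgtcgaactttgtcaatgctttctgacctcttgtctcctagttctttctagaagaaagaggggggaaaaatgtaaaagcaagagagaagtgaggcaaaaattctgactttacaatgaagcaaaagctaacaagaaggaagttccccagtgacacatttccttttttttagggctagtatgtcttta
C1qb (chr4:136886201-136886450, minus strand): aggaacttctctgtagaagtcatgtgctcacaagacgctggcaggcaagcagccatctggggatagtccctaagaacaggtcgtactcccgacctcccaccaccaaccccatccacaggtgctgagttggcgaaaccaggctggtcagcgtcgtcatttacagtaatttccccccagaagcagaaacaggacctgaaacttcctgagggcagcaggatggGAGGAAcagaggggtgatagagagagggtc
Trem2 (chr17:48346151-48346400, plus strand): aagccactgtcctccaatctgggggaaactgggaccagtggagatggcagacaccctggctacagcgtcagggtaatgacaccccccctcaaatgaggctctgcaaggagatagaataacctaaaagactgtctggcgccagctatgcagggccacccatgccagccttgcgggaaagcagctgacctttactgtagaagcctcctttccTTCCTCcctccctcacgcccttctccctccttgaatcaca

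RefSeq windows of 250 bases before to 50 bases after the start were held for 6 of the 9 genes: C1qb, C1qc, Cx3cr1, P2ry12, Aif1 and Trem2. GAGGAA, searched on both strands, was found in 4 of these 6. It lay 30 bases before the start of C1qb on the gene's strand and, on the other strand, 193 bases before C1qc, 7 before Aif1 and 40 before Trem2. These letters were absent from the windows of P2ry12, which passed the knockout test at P0, and of Cx3cr1, which did not pass. A relation of the motif to the knockout values was not tested. Of all 32851 windows searched, 9289 (28.3%) held the motif. A match is a description of the sequence and not a measured binding site.

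The largest difference among the 9 genes at P0 was in P2ry12, the receptor for extracellular ADP through which microglial processes sense injury and active neurons. It was counted 53, 54 and 59 times in the 3 knockout libraries and 99, 100 and 124 times in the 3 controls. Scaled to depth, these are 4.21, 4.47 and 3.56 CPM in the knockouts and 8.31, 8.09 and 6.86 CPM in the controls. Every knockout lay below every control, and the 2 ranges did not touch. The mean was 4.08 ± 0.466 CPM against 7.75 ± 0.782 (SD, n = 3), 1.91-fold lower, with a log2 fold change of -0.93 (SE 0.18) and an edgeR adjusted p of 0.0368. An exact two-sided permutation test of this gene alone gave p = 0.1, the smallest that 3 against 3 allows. P2ry12 was the 1 gene of the 9 that passed the test at P0, where 0.909% of the 16176 genes tested passed and 0.717% passed as lower.

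The call on P2ry12 stood near the threshold while its direction did not vary. Leaving out 1 library at a time gave log2 fold changes from -1.01 to -0.83 and edgeR adjusted p from 0.0243 to 0.208. The call was lost when replicate 1 or 2 of either genotype was left out and stood without either replicate 3. It stood in 7 of the 8 other settings, the exception being a fit without robust estimation (edgeR adjusted p = 0.0564). These 7 include a fit of the 4 libraries of the first number series, which was added after seeing the data. In that fit 12.9% of all genes tested passed.

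P2ry12 lies on the minus strand of chromosome 3 (59216272 to 59262871, GRCm38), inside the body of Med12l, a gene of the plus strand (59005825 to 59318682) with which it shares an exonic overlap. The kit is not stated to keep strand. Reads of P2ry12 split between the 2 strand settings of the count tables, with 45.8% to 70.4% on the forward setting. Those settings together held 0 to 6 reads per library more than the unstranded count, reads that the unstranded count leaves out because they also touch a gene of the other strand. Med12l was 26.5, 28.1 and 21.0 CPM in the P0 knockouts and 33.2, 33.2 and 34.5 in the P0 controls, a log2 fold change of -0.43 (SE 0.11) that did not pass (edgeR adjusted p = 0.0855). For Med12l the strand settings together held 122 to 207 reads more than the unstranded count in the P0 libraries. In knockout replicate 3 this was 207 beside an unstranded count of 348, and in control replicate 3 185 beside 624. The Med12l levels given here leave such reads out, unevenly between libraries. The part of Med12l in the difference of P2ry12 was not tested.

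Further receptor genes lie inside Med12l on the same strand as P2ry12, and they were looked at after the P2ry12 value was known. P2ry13, a second ADP receptor found in microglia, had a mean of 1.57 CPM in P0 knockouts and 2.76 in P0 controls, a log2 fold change of -0.81 (SE 0.26, edgeR adjusted p = 0.153). P2ry14, the receptor for UDP-glucose, was at 1.2 and 1.16 CPM (log2 fold change 0.04, SE 0.35). Gpr171 was at 0 in both P0 groups and was not tested.

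Csf1r and Cx3cr1, the receptors for Csf1 and Il34 and for fractalkine, were lower in the mean at P0 without passing the test. Csf1r was 17.2, 16.2 and 18.9 CPM in the knockouts and 23, 25.2 and 20.0 in the controls. The groups did not overlap, although knockout replicate 3 at 18.9 came close to control replicate 3 at 20.0. The log2 fold change was -0.38 (SE 0.12, edgeR adjusted p = 0.139). Cx3cr1 was 12.3, 13.7 and 15 CPM in the knockouts and 20.7, 16.7 and 13.9 in the controls, which overlapped (log2 fold change -0.31, SE 0.15, edgeR adjusted p = 0.324). Of the 9 genes, 2 (P2ry12 and Csf1r) had groups that did not overlap, beside 21.8% of all genes tested. An unadjusted p below 0.05 was likewise reached by 2 of the 9, beside 16.1% of all genes.

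**Figure D1:**
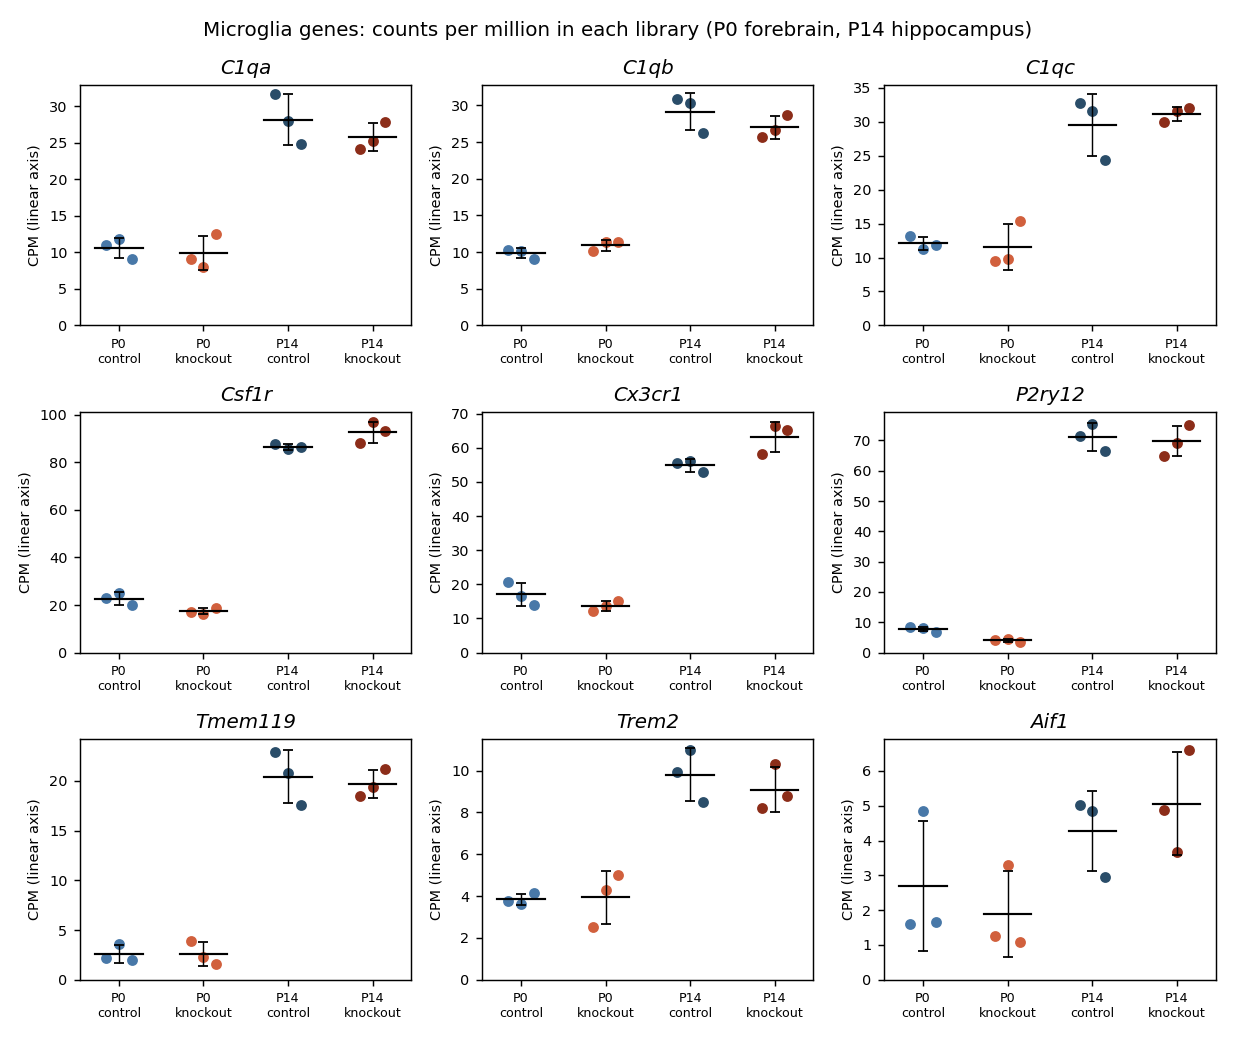
Level of each of the 9 microglia genes in CPM (linear axis from 0, scaled per panel) in each of the 12 libraries, in 4 groups of 3. Points are libraries in replicate order, the horizontal line is the mean and the bar its SD. P2ry12 in the P0 knockouts lies between 3.56 and 4.47 CPM, below the P0 controls at 6.86 to 8.31, and in all panels but Aif1 the P14 libraries lie above all P0 libraries.

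None of the 3 chains of C1q passed the test at P0. C1qa was 9.13, 8.03 and 12.5 CPM in the knockouts and 11, 11.8 and 9.12 in the controls. C1qb, at 10.1, 11.4 and 11.4 CPM, was close to or above its controls at 10.3, 10.2 and 9.12. C1qc was 9.45, 9.77 and 15.4 CPM against 13.2, 11.2 and 11.8. In C1qa and C1qc the highest and the lowest values of all 6 libraries both fell among the knockouts, with replicate 3 the highest. The log2 fold changes were -0.09 (SE 0.18) for C1qa, 0.15 (SE 0.14) for C1qb and -0.05 (SE 0.18) for C1qc, and edgeR adjusted p-values were 0.843, 0.641 and 0.916. The SE at these depths leaves room for modest changes in either direction.

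Tmem119, Trem2 and Aif1 had the fewest reads of the 9 over the 6 P0 libraries and the largest SEs. Trem2, the lipid-sensing receptor that signals through Tyrobp, was 2.54, 4.30 and 5.01 CPM in the knockouts and 3.78, 3.64 and 4.15 in the controls (log2 fold change 0.04, SE 0.25). Tmem119, at 3.89, 2.32 and 1.57 CPM, spanned a wider range in the knockouts than in the controls at 2.18, 3.64 and 1.94 (log2 fold change -0.00, SE 0.35). Aif1, the gene of the actin-binding protein Iba1, was 1.27, 3.31 and 1.09 CPM in the knockouts and 1.59, 4.85 and 1.66 in the controls (log2 fold change -0.53, SE 0.55). In both genotypes replicate 2 stood above the other 2 libraries for Aif1. For these 3 genes the difference was within the spread between libraries, with edgeR adjusted p-values of 0.959, 0.998 and 0.689.

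Ratios within a library show the same contrast without the library's scaling. There were 0.361, 0.321 and 0.343 P2ry12 reads per Csf1r read in the P0 controls, and 0.245, 0.276 and 0.188 in the P0 knockouts. Against the summed reads of the 3 C1q genes, P2ry12 stood at 0.241, 0.244 and 0.228 in the controls and at 0.147, 0.153 and 0.0908 in the knockouts. Both ratios were lower in every knockout than in every control. The ratio of C1q to Csf1r went the other way, at 1.5, 1.31 and 1.5 in the controls and 1.67, 1.8 and 2.08 in the knockouts. These ratios were formed after the genes' own values were known and carry no test.

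**Figure D2:**
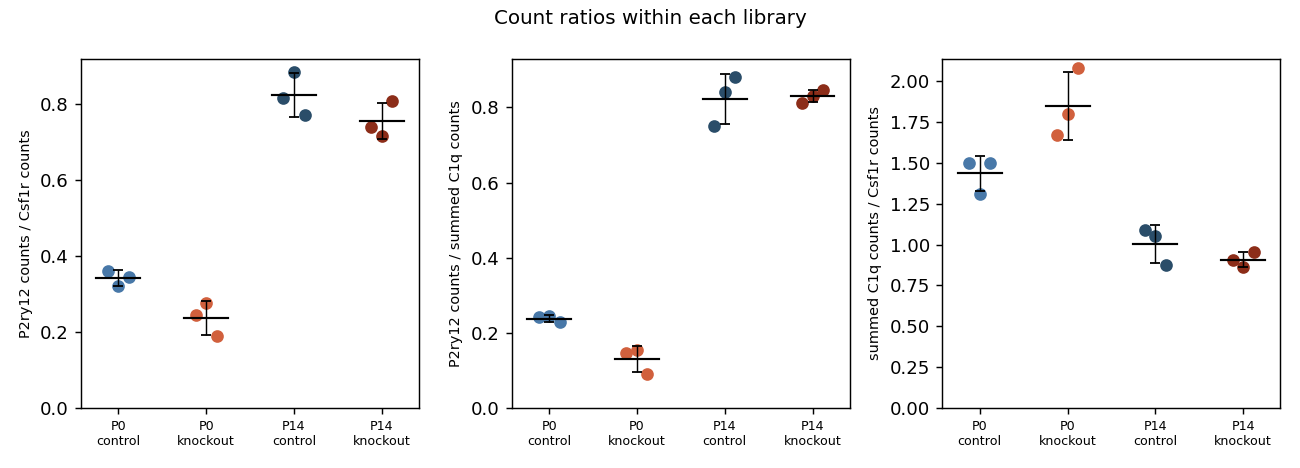
Ratios of read counts within each library for P2ry12 over Csf1r, P2ry12 over the sum of C1qa, C1qb and C1qc, and that sum over Csf1r, in the 4 groups (linear axes from 0, points for libraries, line and bar for mean and SD). P2ry12 over Csf1r is 0.188 to 0.276 in P0 knockouts and 0.321 to 0.361 in P0 controls, and 0.716 to 0.884 in the 6 P14 libraries.

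The P0 values were also computed within the 4 libraries of the first number series, a choice made after the depths were seen. There P2ry12 (log2 fold change -0.91, SE 0.21, edgeR adjusted p = 0.00438), Csf1r (-0.53, SE 0.12, adjusted p = 0.0049) and Cx3cr1 (-0.52, SE 0.15, adjusted p = 0.0183) were all lower in the knockouts. In that fit 12.9% of all 16271 genes tested passed, so the 3 calls stand against a much larger background. C1qa (-0.41, SE 0.17, edgeR adjusted p = 0.121) and C1qc (-0.34, SE 0.17, adjusted p = 0.195) were also lower in the mean there without passing, while C1qb was at 0.07 (SE 0.17). The values of C1qa and C1qc over all 6 libraries, nearer to 0, thus depend on replicate 3 of the knockouts, without which they were -0.30 and -0.33. In the pair of libraries of the second series there is 1 mouse per genotype and no test, and P2ry12 was 3.56 CPM in the knockout and 6.86 in the control.

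A further list of 26 microglia genes was set beside the 9. At P0 25 of them could be tested and 0 passed edgeR's test (1 did with DESeq2, Ctss), while 22 had a negative log2 fold change and 3 a positive one. Their median log2 fold change was -0.23, beside -0.00 over all genes tested. Of the 25, 7 had an unadjusted p below 0.05, beside 16.1% of all genes. Among all 16176 genes tested, 8102 had a negative log2 fold change. Among the most abundant, Sall1 (a transcription factor also made by neural progenitors) gave -0.03 and Rgs10 (a regulator of G protein signalling) gave -0.39. The smallest adjusted p of the list was that of Ctss, the lysosomal protease cathepsin S, singled out after its value was seen (7.56 against 12 CPM, log2 fold change -0.66, SE 0.16, edgeR adjusted p = 0.0649).

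Markers of other cells moved in the same libraries. Of all 16176 genes tested there, 16.1% had an unadjusted p below 0.05 and 0.909% passed edgeR's test. The summed level of 10 astrocyte genes was 663 to 683 CPM in P0 knockouts and 708 to 888 in P0 controls, and among them Aqp4, the astrocytic water channel, fell (log2 fold change -0.59, edgeR adjusted p = 0.0416). Of these 10 genes, 5 had an unadjusted p below 0.05, and DESeq2 called 4, adding Gja1, Slc1a2 and Slc1a3. The 7 oligodendrocyte precursor genes summed to 226 to 238 CPM against 259 to 296, with 0 of 7 called by edgeR (3 with an unadjusted p below 0.05, and 1 by DESeq2, Olig1) and all 7 log2 fold changes negative. Of the 10 neuronal genes, Slc17a7, a vesicular glutamate transporter of cortical neurons, fell (-0.54) and the other 9 did not pass edgeR's test. Of the 10, 4 had an unadjusted p below 0.05, and DESeq2 also called Syt1, a synaptic vesicle protein (-0.42, edgeR adjusted p = 0.0811). The summed border macrophage genes overlapped between the groups, at 80.2 to 97.6 CPM in knockouts and 82.9 to 100 in controls, with 0 of the 7 tested called by edgeR or DESeq2 and 3 with an unadjusted p below 0.05. None of 6 oligodendrocyte genes, 10 endothelial genes, 9 genes of pericytes and fibroblasts and 5 erythroid genes tested at P0 passed with edgeR or DESeq2 (1, 4, 1 and 0 of them had an unadjusted edgeR p below 0.05), and none of the leukocyte genes was high enough to be tested. The part of any of these in the microglia values was not tested.

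**Figure D3:**
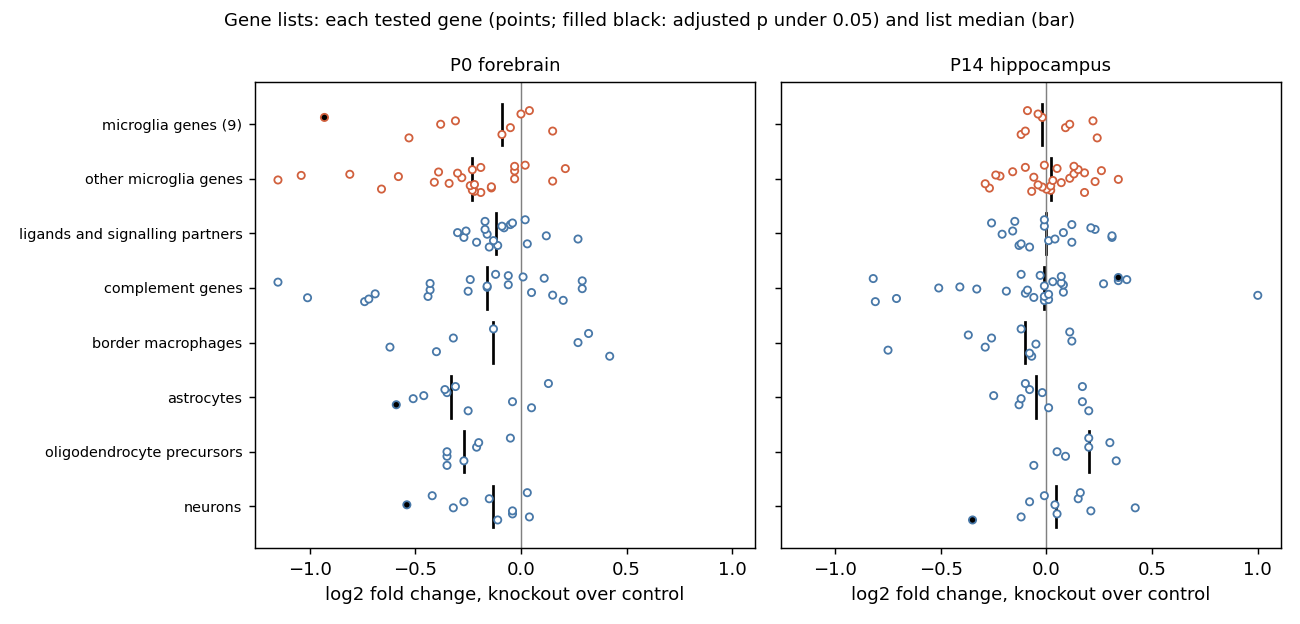
Log2 fold change of knockout over control for each tested gene of 8 lists at P0 (left) and P14 (right), with the list median as a bar and genes with an edgeR adjusted p under 0.05 filled in black. At P0 the median is -0.09 for the 9 microglia genes and -0.23 for the other microglia genes, with P2ry12 filled at -0.93, and at P14 these medians are -0.02 and 0.02.

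At P14, in hippocampus and with the nes-cre deletion, none of the 9 genes passed edgeR's test, where 1.99% of 17208 genes did. DESeq2 also called 0 of the 9. P2ry12 was 65.0, 69.3 and 75.1 CPM in the knockouts and 71.6, 75.5 and 66.4 in the controls. These ranges overlapped almost wholly (log2 fold change -0.02, SE 0.08, edgeR adjusted p = 0.952). Tmem119 was 18.5, 19.4 and 21.2 CPM against 22.9, 20.8 and 17.6 (log2 fold change -0.04, SE 0.11). At this age SEs were 0.07 to 0.25, smaller for each of the 9 genes than at P0.

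Csf1r and Cx3cr1 were slightly higher in every P14 knockout than in every P14 control, without passing the test. Csf1r was 88.0, 96.8 and 93.0 CPM in the knockouts and 87.8, 85.4 and 86.3 in the controls (log2 fold change 0.11, SE 0.07, edgeR adjusted p = 0.508). Cx3cr1 was 58.1, 66.4 and 65.1 CPM against 55.4, 56.2 and 52.8 (log2 fold change 0.22, SE 0.08, edgeR adjusted p = 0.191). They were the 2 genes of the 9 whose groups did not overlap, beside 20% of all genes tested, and Cx3cr1 was the 1 gene with an unadjusted p below 0.05, beside 15.2%.

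C1q, Trem2 and Aif1 overlapped between the P14 groups. C1qa was 24.1 to 27.9 CPM in knockouts and 24.8 to 31.7 in controls, C1qb 25.7 to 28.7 and 26.3 to 30.9, and C1qc 30.0 to 32.0 and 24.3 to 32.8. Trem2 was 8.19 to 10.3 against 8.48 to 11 CPM, and Aif1 3.67 to 6.61 against 2.95 to 5.02. The log2 fold changes of these 5 genes ran from -0.12 (C1qa) to 0.24 (Aif1). Of the other 26 microglia genes 0 were called at P14 by edgeR or DESeq2 (3 with an unadjusted p below 0.05, beside 15.2% of all genes). Their log2 fold changes were 14 positive and 12 negative, with a median of 0.02, beside -0.01 over all genes. The border macrophage list had 0 of 10 called, none of them with an unadjusted p below 0.05, and its sums overlapped at 58.4 to 72.5 CPM in knockouts and 57.8 to 82.4 in controls. Among 27 complement genes tested Sez6, a neuronal membrane protein with complement-like domains, rose (log2 fold change 0.34, edgeR adjusted p = 0.0349), and of 10 neuronal genes Gad1, an enzyme of GABA synthesis, fell (-0.35).

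Whether the effect of the deletion differed between the P0 and P14 settings was tested directly, as an interaction over all 12 libraries. P2ry12 passed, with a difference of 0.90 on the log2 scale (SE 0.17, edgeR adjusted p = 0.00654): its knockout effect was near 0 at P14 and negative at P0. This was 1 of the 9 genes, where 1.79% of 18189 genes passed and 1.37% as higher. It passed in all 12 fits that left out 1 library, with differences from 0.79 to 1.01, and in all 5 other settings. Csf1r (0.47, SE 0.13, edgeR adjusted p = 0.0686) and Cx3cr1 (0.51, SE 0.17, adjusted p = 0.129) differed in the same direction without passing. The 3 C1q genes gave -0.05, -0.27 and 0.12, with SEs of 0.20, 0.16 and 0.22. Tissue, age, Cre line, control genotype and the series of library numbers all change together between the 2 settings and cannot be told apart.

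**Figure D4:**
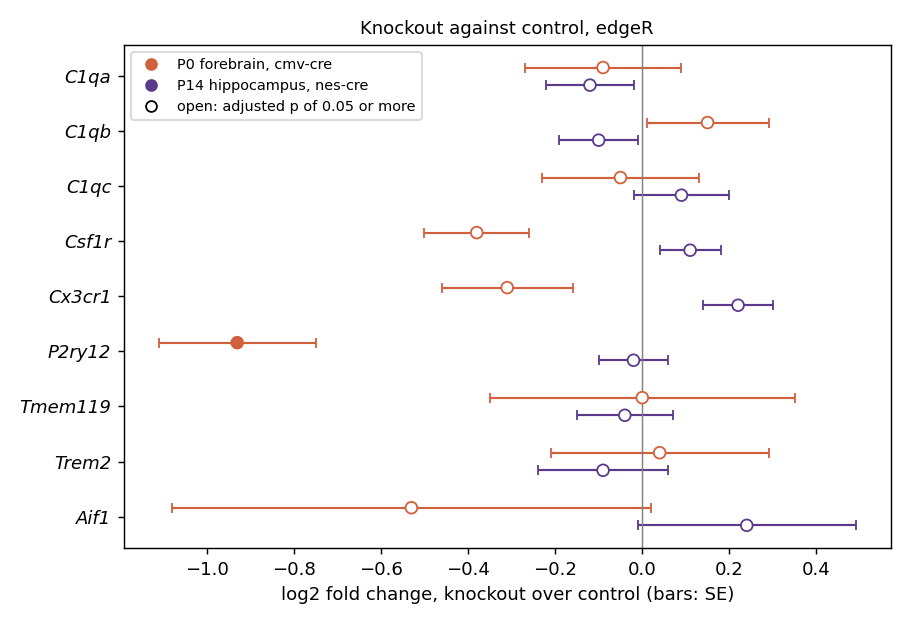
Log2 fold change of knockout over control for the 9 genes at P0 (forebrain, cmv-cre) and at P14 (hippocampus, nes-cre), with SE bars and filled points for an edgeR adjusted p under 0.05. Only P2ry12 at P0 is filled, at -0.93, and its P14 value is -0.02.

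All 9 microglia genes had higher means in P14 hippocampus than in P0 forebrain. Tissue, age and the series of library numbers change together in this contrast and cannot be told apart. The control genotype also changes, as does the Cre line of the knockouts. Here and below, rose and fell stand for higher and lower in P14 hippocampus than in P0 forebrain. In controls 8 of the 9 were higher at P14 by edgeR's test, where 32.3% of 18189 genes were. In knockouts all 9 were, where 32.1% were. The control and knockout contrasts use different libraries and share 1 estimate of the spread. P2ry12 rose most, from 7.75 ± 0.782 to 71.1 ± 4.60 CPM in controls (SD, n = 3), 9.24-fold. Tmem119 rose 8.04-fold, from 2.59 ± 0.921 to 20.5 ± 2.65 CPM. Every P14 library lay above every P0 library for both genes.

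The receptors Csf1r and Cx3cr1 rose 3.82-fold and 3.23-fold in controls. Csf1r went from 22.7 ± 2.62 to 86.5 ± 1.23 CPM, and Cx3cr1 from 17.1 ± 3.44 to 54.8 ± 1.79 CPM. C1qb, C1qa and C1qc rose 2.96-fold, 2.66-fold and 2.45-fold, and Trem2 2.53-fold. In log2 terms with their SEs these are 1.93 (0.09) for Csf1r, 1.69 (0.12) for Cx3cr1, 1.57 (0.11) for C1qb, 1.41 (0.14) for C1qa, 1.34 (0.20) for Trem2 and 1.29 (0.15) for C1qc, beside 3.21 (0.11) for P2ry12 and 3.01 (0.24) for Tmem119. P2ry12 and Tmem119 lie within their errors of each other, as do C1qb, C1qa, Trem2 and C1qc with their neighbours in this order. Differences between the genes were not tested.

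Aif1 was the exception in controls. It was 1.59, 4.85 and 1.66 CPM at P0 and 5.02, 4.85 and 2.95 at P14, and P0 replicate 2 alone reached the P14 range (log2 fold change 0.68, SE 0.47, edgeR adjusted p = 0.225). Without that library the log2 fold change was 1.38 and passed. In the knockouts Aif1 rose by a log2 fold change of 1.44 (SE 0.49, edgeR adjusted p = 0.0216), a call lost on leaving out replicate 3 of the P14 knockouts, or replicate 1 or 3 of those at P0.

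Between the knockout groups P2ry12 was 4.11 higher on the log2 scale at P14, at 69.8 CPM against 4.08. The P14 knockouts were within error of the P14 controls, while the P0 knockouts were below the P0 controls. The 2 knockout groups differ in Cre line, tissue, age and series of library numbers, and their controls differ in genotype. These cannot be told apart. Csf1r rose by 2.40 and Cx3cr1 by 2.20. Tmem119, at 2.95, was close to its value in controls. C1qa, C1qb and C1qc rose by 1.36, 1.30 and 1.41, and Trem2 by 1.19.

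**Figure D5:**
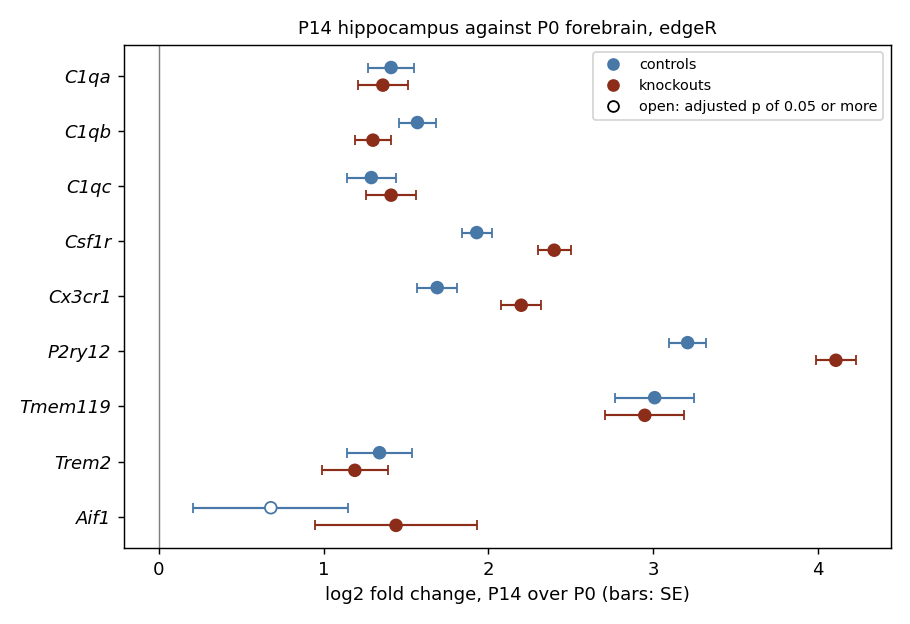
Log2 fold change of P14 hippocampus over P0 forebrain for the 9 genes, in controls and in knockouts, with SE bars and filled points for an edgeR adjusted p under 0.05. P2ry12 (3.21 in controls, 4.11 in knockouts) and Tmem119 (3.01 and 2.95) rise most, and Aif1 in controls (0.68) is the one open point.

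The balance among the 9 genes changed with this rise. Relative to the mean of the 9 in the same library, P2ry12 stood at 0.02 ± 0.12 log2 units in P0 controls and 1.41 ± 0.09 in P14 controls (SD, n = 3), and at -0.65 ± 0.18 in P0 knockouts and 1.36 ± 0.02 in P14 knockouts. Tmem119 moved from -1.57 ± 0.29 to -0.39 ± 0.06 in controls. C1qa fell back from 0.46 ± 0.05 to 0.07 ± 0.08, C1qc from 0.65 ± 0.26 to 0.13 ± 0.08, and Trem2 from -0.97 ± 0.28 to -1.44 ± 0.09. Csf1r kept its place, at 1.55 ± 0.04 and 1.69 ± 0.15.

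Per kilobase of summed exons, the order of levels also differed between P0 forebrain and P14 hippocampus. In P0 controls C1qa (10.2 ± 1.32 CPM per kilobase) and C1qb (9.08 ± 0.604) came first, within error of each other, followed by C1qc (6.23 ± 0.534). Csf1r (3.94 ± 0.453), Cx3cr1 (3.80 ± 0.763) and P2ry12 (3.04 ± 0.307) came next. Cx3cr1 overlapped with both of the others, while Csf1r (3.47 to 4.37) lay above P2ry12 (2.69 to 3.26) in every library. Aif1 (1.76 ± 1.22), Tmem119 (1.12 ± 0.398) and Trem2 (0.779 ± 0.0531) were lowest. In P14 controls P2ry12 (27.9 ± 1.81), C1qa (27.1 ± 3.34) and C1qb (26.8 ± 2.28) shared the top within error, ahead of C1qc (15.3 ± 2.37), Csf1r (15 ± 0.213) and Cx3cr1 (12.2 ± 0.397). Tmem119 followed at 8.83 ± 1.15, above Aif1 (2.79 ± 0.751) and Trem2 (1.98 ± 0.255).

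The places of C1qc, Trem2, Aif1 and, to a lesser degree, Csf1r depend on which exons count toward length. With the exons of protein-coding basic transcripts alone, a choice made after the lengths were seen, Trem2 shortens from 4946 to 1143 bases and its P14 control level becomes 8.57 ± 1.10 CPM per kilobase, and C1qc becomes 24.5 ± 3.80. The C1q protein holds its 3 chains in equal numbers. By all exons the C1qa, C1qb and C1qc messages made up 39.9%, 35.6% and 24.5% of their sum per kilobase in P0 controls and 39.1%, 38.8% and 22.0% in P14 controls. By the exons of coding transcripts the shares in P14 controls were 34.6%, 34.3% and 31.2%. In P0 knockouts the C1qb share by all exons was 40.4%, 45.1% and 34.3% in the 3 libraries, a wider range than in P0 controls (35.3%, 35.3% and 36.1%).

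The ligands and signalling partners of these receptors are a list of 18 genes. In controls 13 of them were higher and 3 lower at P14, with a median log2 fold change of 0.77. Over all 18189 genes tested, 5877 were higher and 5765 lower. Il34, the neuronal ligand of Csf1r, rose from 2.97 to 44.4 CPM (log2 fold change 3.93, SE 0.15), and Cx3cl1, the ligand of Cx3cr1, from 85.1 to 692 CPM (3.03, SE 0.09). Csf1, the other ligand of Csf1r, rose by 0.69 (SE 0.13), so the ligand and receptor pairs Il34 and Csf1r, and Cx3cl1 and Cx3cr1, were both higher at P14. Each of these 3 passed with an edgeR adjusted p of 8.09e-05 or smaller.

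Around Trem2, the adaptor Tyrobp rose by 1.12, the kinase Syk by 0.74, the phospholipase Plcg2 by 1.25 and the lipid phosphatase Inpp5d by 1.2, and the lipoprotein ligands Apoe and Clu, made largely by astrocytes, rose by 2.26 and 2.96. In the transforming growth factor beta arm, which maintains microglial identity, the receptor Tgfbr2 rose by 0.52, Nrros (which presents the latent ligand on microglia) by 0.90 and Smad3 by 0.53. The receptor Tgfbr1 fell by 1.00 and the ligand Tgfb1 gave 0.43 (SE 0.21, edgeR adjusted p = 0.0766). Among the transcription factors Mef2a rose by 0.79 and Runx1 gave 0.18 (edgeR adjusted p = 0.74). Gnai2, the G protein subunit to which P2ry12 couples, fell by 0.31. Most of these genes are also made by other brain cells.

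None of the 18 partners passed in either knockout comparison with edgeR or DESeq2. An unadjusted p below 0.05 was found for 1 at P0 and 3 at P14, beside 16.1% and 15.2% of all genes tested. At P0 the ligands gave log2 fold changes of 0.03 for Csf1 (SE 0.15), 0.27 for Il34 (SE 0.25) and -0.21 for Cx3cl1 (SE 0.09, edgeR adjusted p = 0.29). At P14 they gave -0.12, 0.04 and 0.12. Median log2 fold changes of the list were -0.12 at P0 and 0.00 at P14.

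Downstream of C1q, a list of 32 complement genes ranged from undetected to abundant. C1rb was at 0 in all 12 libraries, and C3, the central component, was 1.59 CPM in P0 controls and 0.547 in P14 controls and fell by 1.5 on the log2 scale. C4b, the murine C4 gene, rose from 1.08 to 10.4 CPM (log2 fold change 3.30), with the caution that C4b and C4a are near-identical copies whose reads the counting may split. Itgam and Itgb2, the subunits of complement receptor CR3, rose by 2.93 and 1.35. The inhibitor Susd4 rose by 1.39 and Masp1, a protease of the lectin pathway, fell by 1.43. C3 and Itgb2 are named for their roles, after their values were seen. In all, 12 of 27 tested genes were higher and 6 lower in P14 controls, beside 5877 higher and 5765 lower of all 18189 genes tested. The C1q genes, C4b and both receptor subunits were higher at P14, while C3 was lower. The C3 value rests on 19 to 25 reads per library in P0 controls and 2 to 16 in P14 controls. At P0 0 of 22 tested complement genes passed edgeR's test in the knockouts. Among them 6 had an unadjusted p below 0.05, beside 16.1% of all genes tested, and DESeq2 called 3 (Calr, Cd55 and Csmd3). The most abundant were Calr, Sez6 and Sez6l (log2 fold changes -0.44, 0.11 and 0.01).

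Most other microglia genes were also higher at P14, and border macrophage genes went in both directions. Of the 26 other microglia genes, 24 were higher in P14 controls, with a median log2 fold change of 1.38, and those with the smallest adjusted p included Selplg (4.26), P2ry13 (2.62), Fcrls (2.20), Cyth4 (2.18), Siglech (2.95), Gpr34 (2.55) and Cd33 (1.84). Sall1 (-0.03) and Rgs10 (0.02) did not pass. Of 10 border macrophage genes tested 0 were higher and 4 lower: Lyve1 fell by 1.83, F13a1 by 1.51, Pf4 by 1.26 and Maf, which neurons also make, by 0.50. Of the 6 that did not pass, 5 had positive log2 fold changes, from 0.18 for Cd163 to 0.88 for Cbr2 (edgeR adjusted p = 0.07), and Mrc1 gave -0.33. The 2 lists were not tested against each other. Of all 18189 genes tested, 5877 were higher and 5765 lower. In a list of 18 genes of activated microglia and of the microglia of early white matter, 13 were tested, 8 were higher and 2 lower. Ctsd (1.06), Axl (1.30), Apoe (2.26), Cd9 (1.05), Ctsb (0.73), Lpl (2.07) and Igf1 (0.72) rose and Fabp5 fell by 0.61. Spp1, singled out afterwards as a mark of early white matter microglia, fell by 1.67. Several of these are abundant in neurons and other glia.

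Other cell types changed over the same contrast. All 8 oligodendrocyte genes and 8 of 10 astrocyte genes were higher in P14 controls, with medians of 5.77 and 2.18 on the log2 scale, and so were 5 of 7 precursor genes, 8 of 10 endothelial genes and 5 of 9 genes of pericytes and fibroblasts. Neuronal genes split into 6 higher and 4 lower, beside 5877 higher and 5765 lower of all 18189 genes tested. Of 6 erythroid genes tested, Alas2 was higher, and the 1 leukocyte gene tested did not pass. At P14 edgeR called 0 genes between the genotypes in the lists of astrocytes, precursors, oligodendrocytes, endothelial cells, pericytes and fibroblasts, red cells and activated microglia. Of these lists 0, 3, 0, 3, 3, 1 and 3 genes had an unadjusted p below 0.05, beside 15.2% of all genes tested. DESeq2 called Kdr, Acta2 and Lum among them. At P0 0 of 13 genes of activated microglia passed with edgeR or DESeq2, and 3 had an unadjusted p below 0.05, beside 16.1% of all genes.

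The genes whose pattern was most like that of the 9 were sought among 13919 genes with a mean log2 CPM of at least 1, as a description over 12 libraries that differ in depth and library number series. By the deviation of each library from its group's mean, where genotype and age play no part, the 8 highest Pearson r values ran from 0.945 (Ndufb7) to 0.903 (Sod1), with Suclg1, Snx16, Sh3bgrl3, Psmb1, Ndufa11 and Tspan12 between them. The mean of the 9 genes deviated most in P0 control replicate 2 (0.20 log2 units) and, on the low side, in P0 control replicate 3 (-0.19). In replicate 2 the largest single deviation was that of Aif1, at 1.01. The 9 genes did not follow one another closely by this measure: each gene against the mean of the other 8 gave r = 0.863 for C1qb, 0.553 for P2ry12, 0.506 for Csf1r, 0.428 for C1qa, 0.375 for Cx3cr1, 0.335 for Aif1, 0.126 for C1qc, 0.0767 for Trem2 and 0.0551 for Tmem119. The level itself differs most between P0 forebrain and P14 hippocampus, where age and tissue cannot be told apart. By that level the highest included Plpp3, Arsb, Mtfp1, Il33, Mlc1, Plekhb2 and Ntsr2, each with r = 0.997.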

How the data were processed

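The deposited files hold raw read counts per Ensembl gene, 1 file per library, which the authors made by STAR gene counting against GRCm38 (mm10, annotation release 102), per the file names. STAR 2.7.5a and edgeR 3.12 are named in the submitters' processing notes. Per the labels' protocols, RNA was extracted with Trizol, treated with DNase I and made into TruSeq libraries. The unstranded count was used for every value, and the strand-specific counts for P2ry12 and Med12l alone. Because reads are counted without strand, a read outside shared exons is assigned by position, whichever strand it came from. Reads that touch exons of genes on both strands are left out of the unstranded count. Of 55487 identifiers, 55227 matched the annotation given (GENCODE, GRCm38), from which symbols, positions and exon lengths come. Trimming is not given in the sources used here.

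Groups follow the genotype and tissue labels. Replicate numbers follow accession order and pair nothing. The edgeR p-values set each difference against the variation between mice within groups of 3. That variation is estimated over all groups of a fit and moderated across genes. Counts were tested with edgeR 4.0.16 in R 4.3.3 (filterByExpr, TMM, robust dispersions, quasi-likelihood F test, Benjamini-Hochberg over all genes tested, threshold 0.05), in a fit of 6 libraries for each knockout comparison and of all 12 for the others. Log2 CPM was computed with 2 as prior count. The code was tested on simulated counts. Alternatives were RLE scaling, DESeq2 1.42.0, non-robust fitting, no filter, a floor of 10 counts across all libraries of a fit, a joint fit, a library series term and leaving out each library. The members and gene lists were chosen with earlier results of these data known. Always named are the 9 genes, Auts2, and the ligands and signalling partners. From other lists the genes called in a comparison are named (up to 8 by adjusted p), or up to 3 with the highest mean CPM where none is called, and further names are marked as chosen afterwards. Protein sequences were not used here. Promoter sequences are from RefSeq (GRCm38.p6). A few genes that the naming rule would name are not reported here.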

Additional observations from a re-analysis of the deposited data

Results flagged for a closer look

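The effect of the deletion on P2ry12 differed between the 2 settings by 0.90 on the log2 scale (P14 minus P0, SE 0.17, edgeR adjusted p = 0.00654), the one difference between settings among the 9 genes that passed the interaction test. Every P0 knockout lay below every P0 control, while the P14 groups overlapped. Within P0 the call itself rests on 53 to 124 reads per library.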

How the results depend on the processing

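The count of the 9 genes called at P0 was 1 in the reported fit (P2ry12), 0 with non-robust fitting, 3 in the 4 libraries of the first number series (P2ry12, Csf1r and Cx3cr1, added after seeing the data) and 0 to 1 on leaving out 1 library. The interaction count was 1, 2 with DESeq2 and 1 to 3 on leaving out 1 library. At P14 the count was 0 in every fit run, and from P0 to P14 it was 8 to 9 in controls and in knockouts on leaving out 1 library. Values that changed sign were all uncalled. At P0, Tmem119 (-0.00) became 0.00 with DESeq2, 0.00 without a filter and 0.10 in the first number series, where Trem2 (0.04) became -0.12. On leaving out 1 library the P0 ranges were -0.30 to 0.04 for C1qa, -0.33 to 0.08 for C1qc, -0.41 to 0.32 for Tmem119, -1.18 to 0.18 for Aif1 and -0.18 to 0.27 for Trem2. At P14 they were -0.03 to 0.17 for C1qc, -0.07 to 0.03 for P2ry12 and -0.14 to 0.04 for Tmem119. For the interaction they were -0.18 to 0.17 for C1qa, -0.01 to 0.40 for C1qc, -0.36 to 0.36 for Tmem119 and -0.38 to 0.07 for Trem2. Over all genes, the P0 count of 147 was 374 with DESeq2, 625 without a filter, 50 with non-robust fitting, 465 with the library series term, 284 in the joint fit, 2107 in the first series and 1 to 775 on leaving out 1 library. The P14 count of 342 was 534 with DESeq2, 814 without a filter and 104 to 1808 on leaving out 1 library, and the interaction count of 326 was 531, 646 and 125 to 905. The cause of these shifts was not tested. Set against Csf1r rather than the mean of the 9, the relative rise of P2ry12 from P0 to P14 in controls was 1.25 in place of 1.39. No paired analysis was possible because the labels give no replicate numbers, and the numbers used are in accession order. Aif1, Tmem119 and Trem2 rest on 16 to 83 reads per library at P0, and P2ry12 on 53 to 124.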
